A study of Mus musculus with 8 samples.

Results

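The Fc receptors of myeloid cells were followed in cells of donor marrow origin that were sorted from mouse brains following stroke. The set comprised 7 genes (Fcer1g, Fcgr1, Fcgr3, Fcgr4, Fcgr2b, Fcer1a and Fcgrt). Every gene probe whose name, or whose RefSeq accession, pointed to one of these genes was taken, which gave 8 of the 60273 probes on the array, with a pair for Fcgr3 and 1 for each of the others. All recipients were wild-type mice that carried bone marrow labelled with the red fluorescent protein DsRed. The marrow came from Psgl1+/+ donors in 4 samples (replicates 1 to 4) and from Psgl1-/- donors, which lack PSGL-1, the selectin ligand encoded by Selplg, in the other 4 (replicates 5 to 8). The middle cerebral artery had been occluded for 30 min, and ischemic brain was taken at 7 days. Live cells were sorted that carried DsRed and CD11b, had high CD45, and were negative for Ly6G (neutrophils) and for CD3 (T cells). The labels give neither the age of the mice, nor how many animals made up a sample, nor which part of Selplg is missing, and host myeloid cells without DsRed lay outside the gate. A p-value here is thus set by how far the samples scatter, and some of that scatter may be technical.

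Fc receptors bind the constant part of antibodies and let a phagocyte respond to whatever the antibody has coated. Fcgr1, Fcgr3 and Fcgr4 encode the chains that bind IgG in the activating receptors of the mouse, and each depends on the signalling chain encoded by Fcer1g, which carries the activation motif that recruits the kinase Syk. Fcgr2b encodes the inhibitory receptor, which binds the same antibodies and recruits the phosphatase SHIP1, so that the balance of activating and inhibitory receptors sets the threshold of the cell. Fcer1a encodes the IgE-binding chain of mast cells and basophils, and Fcgrt encodes the neonatal receptor, which binds IgG inside endosomes and returns it to the cell surface.

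For none of the 7 tested probes did the difference between Psgl1-/- and Psgl1+/+ cells pass the test against the spread between arrays. The Fcer1g probe and the first Fcgr3 probe were bright on every array and varied little. Fcgr1 and Fcgr4 varied widely from array to array in both genotypes, and Fcgr2b and the second Fcgr3 probe did so mainly among the Psgl1+/+ arrays. Fcgrt was steady, and Fcer1a was not well above background on any array but 1. The values of each receptor follow, as the scaled signal, which is the log2 of the processed spot intensity after each array was brought to the same 75th percentile.

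RNA of each sample was hybridised to 1 single-colour array, and all 8 arrays lay on 1 slide. Between 76.1% and 88.2% of gene spots were well above background, a flag of the scanner software. The share was 86.2% to 88.2% on the 4 arrays of slide row 1 and 76.1% to 81.6% on the 4 arrays of row 2, and each row held 2 arrays of each genotype. Slide columns 1 and 2 held the Psgl1+/+ arrays and columns 3 and 4 the Psgl1-/- arrays, so column and genotype cannot be told apart. Arrays of the same genotype correlated at 0.733 to 0.770 over the tested probes and arrays of different genotypes at 0.706 to 0.775. The sort markers Itgam (CD11b) and Ptprc (CD45) were well above background on all 8 arrays. So were Cd3e, at a scaled signal of 12.04 on Psgl1+/+ replicate 3 and 5.48 to 6.48 on the others, and 7 of 8 B cell markers, while Ly6g was well above background on 7 arrays, so a signal above background did not separate the sorted cells from cells outside the gate. The Selplg probe did not tell the genotypes apart (difference -0.63, limma adjusted p = 0.688, n = 4 per group), and it may lie outside the deleted part, so the directions below rest on the labels.

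The sequences of the probes show what each IgG receptor value rests on. The last 30 bases of 5 of them are given 5′ to 3′ as the scanner files hold them, with the hexamer AATAAA, the usual polyadenylation signal, in capitals.
Fcgr1: acatcctgttttatctgtcagtgggaataa
Fcgr3 probe 1: ctcctatAATAAAgcaaaaaaaatcaacgg
Fcgr3 probe 2: cttcaatcacaacgacttaggatcaccagt
Fcgr4: ctcctaAATAAActtctgtcgaaaagggaa
Fcgr2b: acttgtaccaacctgtcaaagatgatgctt
The first Fcgr3 probe and the Fcgr4 probe hold the hexamer, as do 6.38% of all 60273 gene probes. Probe lengths ran from 47 to 56 bases and GC contents from 38.2% (first Fcgr3 probe) to 51.0% (Fcgrt), around the median of 44.4% over all probes. No pair of the 8 probes shared a run longer than 7 bases, so the probes differ in sequence. Whether a probe also matches the transcript of a related receptor was not tested. The files place the second Fcgr3 probe at chr1:172981647-172981722 of mm9 (with the higher position written first) and list the other 7 probes as unmapped. By RefSeq, Fcgr1 lies on chromosome 3, Fcgrt on chromosome 7 and the other 5 genes on chromosome 1.

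Fcer1g, the chain that all activating IgG receptors share, was among the steady members. Its scaled signal was 13.47, 14.43, 14.64 and 15.38 on Psgl1+/+ replicates 1 to 4 and 13.65, 13.47, 14.71 and 14.55 on Psgl1-/- replicates 5 to 8. Replicate 4 was the highest array and replicates 1 and 6 the lowest, so that the groups overlapped throughout. Psgl1+/+ arrays averaged 14.48 ± 0.79 and Psgl1-/- arrays 14.10 ± 0.63 (SD, n = 4 each), and limma gave a difference of -0.38 with an SE of 0.49 and an adjusted p of 0.752. The 95% interval allows a Psgl1-/- level between 0.348 and 1.69 times that of Psgl1+/+ cells. Within slide row 1 the difference was -0.89 and within row 2 it was 0.13, so the rows did not share a direction. In bulk samples, fewer cells that carry a receptor and less of its RNA per cell cannot be told apart, here or for any member below.

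Fcgr1, the receptor with high affinity for IgG, spanned a 249-fold range among the arrays while being well above background on all of them. Its scaled signal was 6.57, 10.59, 12.86 and 14.53 on Psgl1+/+ replicates 1 to 4 and 13.10, 6.95, 12.75 and 13.40 on Psgl1-/- replicates 5 to 8. Replicate 1 of the Psgl1+/+ group and replicate 6 of the Psgl1-/- group lay far below the other 6 arrays. Psgl1+/+ arrays averaged 11.14 ± 3.45 and Psgl1-/- arrays 11.55 ± 3.08 (SD, n = 4 each), and limma gave a difference of 0.42 with an SE of 2.06 and an adjusted p of 0.941. The difference was -2.38 within slide row 1 and 3.21 within row 2, so that even its direction was not shared by the rows. It was -1.11 without replicate 1 and 1.95 without replicate 6, and it was also below 0 without replicate 5 (-0.10) or replicate 8 (-0.20).

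Fcgr3, the low-affinity activating receptor (CD16 of the mouse), was read by a pair of probes that behaved differently. The first probe gave 13.41, 12.67, 14.21 and 14.57 on Psgl1+/+ replicates 1 to 4 and 12.79, 13.07, 13.74 and 13.16 on Psgl1-/- replicates 5 to 8. These values lie within 1.90 log2 units, close together as for Fcer1g. The second probe gave 5.09, 7.97, 8.43 and 13.50 on the Psgl1+/+ arrays and 9.41, 10.39, 12.41 and 10.55 on the Psgl1-/- arrays, a range of 342-fold, with replicate 1 the lowest and replicate 4 the highest. All 8 values of both probes were well above background. The difference was -0.53 for the first probe (SE 0.46, limma adjusted p = 0.638) and 1.95 for the second (SE 1.66, adjusted p = 0.627), and neither passed the threshold. For the second probe 3 of the 4 Psgl1+/+ arrays lay below all Psgl1-/- arrays and replicate 4 above them all. Its difference was -0.26 within slide row 1 and 4.15 within row 2, while that of the first probe was -0.50 and -0.55. Over the 8 arrays the probes of this gene correlated at a Pearson r of 0.42 (Spearman rho 0.45). Without Psgl1+/+ replicates 3 and 4, the arrays farthest from the median of the first probe, the Pearson r was 0.25.

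**Figure D1:**
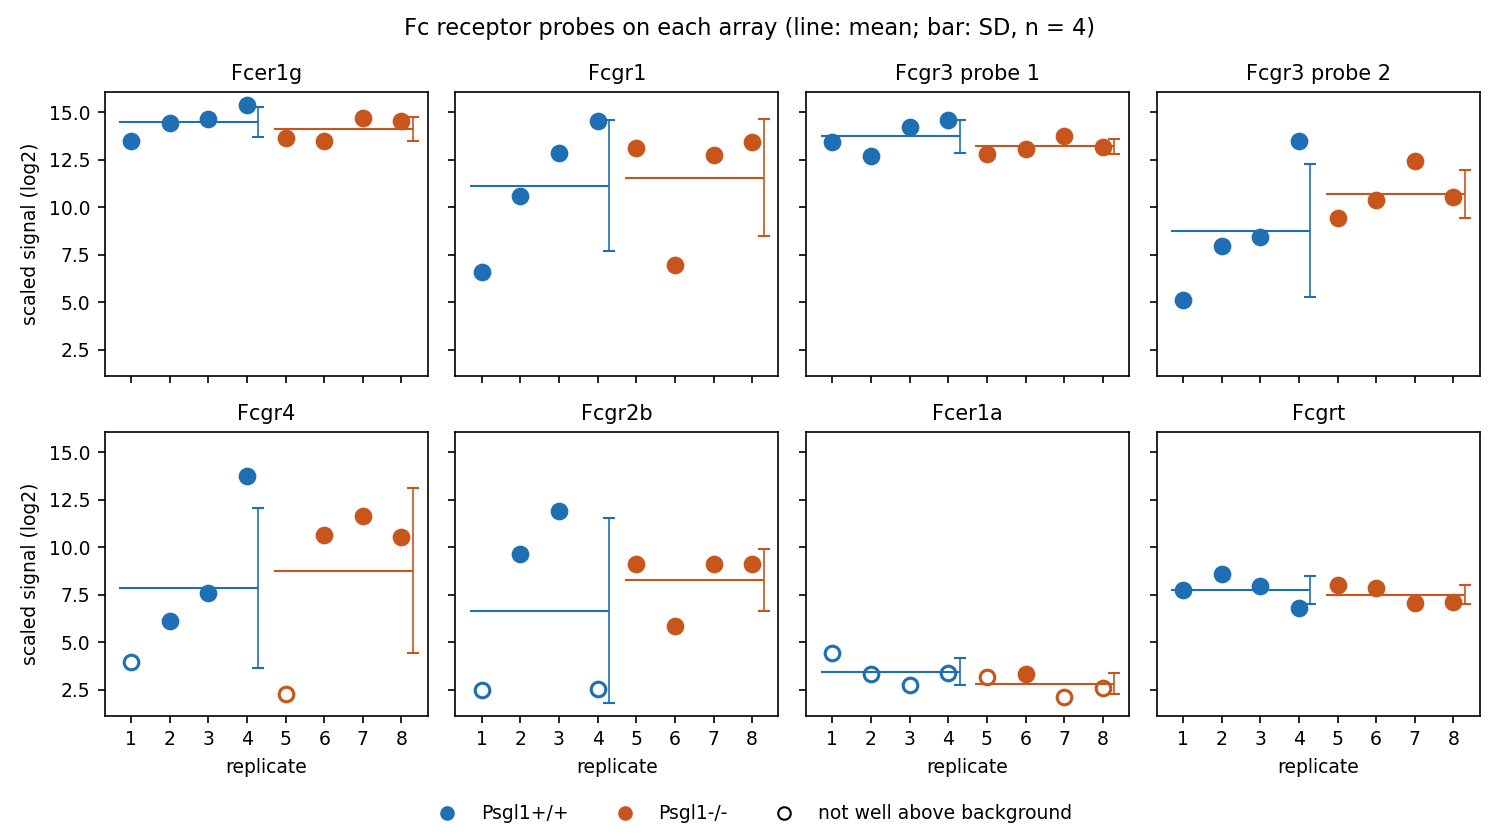
Scaled signal (log2) of each Fc receptor probe on the 8 arrays, with replicates 1 to 4 Psgl1+/+ and 5 to 8 Psgl1-/-; filled circles are well above background, open circles are not, lines are group means and bars SD (n = 4). Fcer1g, the first Fcgr3 probe and Fcgrt stay within 2 log2 units, while Fcgr1, Fcgr4, Fcgr2b and the second Fcgr3 probe spread over 7.96 to 11.45 log2 units and the genotypes overlap in every panel.

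Fcgr4, an activating receptor found on monocytes, macrophages and neutrophils, had the widest range of the set. Its scaled signal was 3.99, 6.11, 7.57 and 13.75 on Psgl1+/+ replicates 1 to 4 and 2.30, 10.64, 11.65 and 10.53 on Psgl1-/- replicates 5 to 8. The signal was not well above background on replicate 1 of the Psgl1+/+ group and replicate 5 of the Psgl1-/- group, and the unscaled intensity of replicate 4 (9704) was the highest. Psgl1+/+ arrays averaged 7.86 ± 4.20 and Psgl1-/- arrays 8.78 ± 4.35 (SD, n = 4 each), and limma gave a difference of 0.92 with an SE of 2.69 and an adjusted p of 0.897. Without replicate 1 the difference was -0.37, without replicate 7 it was -0.03 and without replicate 5 it was 3.08. The 95% interval ran from -5.32 to 7.16 on the log2 scale, so that a large change in either direction lies within it. Neutrophils also carry this receptor, although the sort against Ly6G was meant to remove them. The summed scaled intensity of the 10 neutrophil markers ran from 1756 to 8460 on the Psgl1+/+ arrays and from 6002 to 25443 on the Psgl1-/- arrays, with its part in the Fcgr4 values not tested. Of the 10 markers 6 had a positive and 4 a negative difference, against 31.0% positive over all tested genes, and none passed the threshold. S100a9, a calcium-binding protein abundant in neutrophils, ran from 11.61 to 12.97 on the Psgl1-/- arrays and from 4.49 to 11.42 on the Psgl1+/+ arrays. Its difference was 4.79 (SE 1.43, limma adjusted p = 0.458), and it was the 1 marker of 10 without overlap, against 11.5% of tested genes. The granule gene Ngp was at 13.70 on replicate 7 and at 7.69 or less on the others. The 4 negative differences were those of Camp (-0.69), Ltf (-0.31), Cxcr2 (-0.30) and Elane (-0.26).

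Fcgr2b, the inhibitory receptor, was the member whose detection differed most between the groups. Its scaled signal was 2.52, 9.67, 11.91 and 2.55 on Psgl1+/+ replicates 1 to 4 and 9.14, 5.85, 9.10 and 9.10 on Psgl1-/- replicates 5 to 8. It was well above background on 2 of 4 Psgl1+/+ arrays and on 4 of 4 Psgl1-/- arrays. The highest value of all was a Psgl1+/+ array (replicate 3), as were both arrays at background, so the Psgl1-/- values lay inside the range of the Psgl1+/+ values. Psgl1+/+ arrays averaged 6.66 ± 4.85 and Psgl1-/- arrays 8.30 ± 1.63 (SD, n = 4 each), and limma gave a difference of 1.63 with an SE of 2.28 and an adjusted p of 0.773. The difference was 0.32 after normexp background correction with quantile normalization, 0.25 without replicate 1, 0.26 without replicate 4 and 3.38 without replicate 3. It was 1.36 and 1.91 within slide rows 1 and 2. B cells also use this receptor, and the summed scaled intensity of the 8 B cell markers ran from 97152 to 139478 on Psgl1+/+ arrays and from 70773 to 84973 on Psgl1-/- arrays. Of the 8 markers 1 had a positive and 7 a negative difference, against 31.0% positive over all tested genes, and none passed the threshold. Such a separation was not particular to B cells, as the neuron markers summed to 143743 to 221787 on Psgl1+/+ arrays and 99533 to 127305 on Psgl1-/- arrays. None of the 8 markers was below background on every array, and their part in the Fcgr2b values was not tested.

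The balance of activating over inhibitory signal was taken on each array as the mean log2 of the brightest probes of Fcgr1, Fcgr3 and Fcgr4 minus that of Fcgr2b. Only its change between arrays can be read, since probes differ in brightness for reasons other than RNA level. It was 5.47, 0.12, -0.36 and 11.73 on Psgl1+/+ replicates 1 to 4 and 0.25, 4.37, 3.62 and 3.26 on Psgl1-/- replicates 5 to 8. Fcgr2b was not well above background on replicates 1 and 4, nor Fcgr4 on replicates 1 and 5, so the values of these 3 arrays rest on signals that only bound a level. On replicate 4 only Fcgr2b was at background, so 11.73 is a lower bound, above the values of replicates 2, 3 and 5 to 8. On replicate 5 only Fcgr4 was, so 0.25 is an upper bound, below replicates 6 to 8. Both were at background on replicate 1, so its value is bounded in neither direction. Among the other 5 arrays, replicates 2 and 3 of the Psgl1+/+ group lay below replicates 6 to 8 of the Psgl1-/- group. The bounds on Psgl1+/+ replicate 4 and Psgl1-/- replicate 5 go the other way, so this order holds only with those arrays set aside. The group means were 4.24 ± 5.65 (SD, n = 4) and 2.87 ± 1.81 (SD, n = 4). The difference of -1.36 rests in part on those bounds and is given with no test, since it combines members chosen with these data known. It became 1.13 without replicate 4 and -2.90 without replicate 3, and its sign also turned after normexp background correction with quantile normalization (0.19).

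Fcer1a, the IgE-binding chain, gave no measurable level in most samples. Its unscaled intensity was 19.7, 9.91, 5.40 and 7.40 on Psgl1+/+ replicates 1 to 4 and 10.2, 11.9, 4.84 and 7.86 on Psgl1-/- replicates 5 to 8. It was well above background on replicate 6 alone, although the highest of these intensities belonged to replicate 1, and the probe was therefore left out of the tests. The partner chain Ms4a2, the beta subunit of the same receptor, was well above background on all 8 arrays. The 10 measured mast cell and basophil markers summed to between 13710 and 34062 on the Psgl1+/+ arrays and between 9056 and 15230 on the Psgl1-/- arrays. Of these 10 markers 1 had a positive and 9 a negative difference, against 31.0% positive over all tested genes, and none passed the threshold. Cpa3, a mast cell carboxypeptidase, was at 11.33 and 11.60 on Psgl1+/+ replicates 2 and 4 and between 3.56 and 4.54 on the other 6 arrays (difference -4.15, SE 1.79, limma adjusted p = 0.458). The positive difference was that of Kit, the stem cell factor receptor (2.42, SE 1.27, limma adjusted p = 0.478).

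Fcgrt, the neonatal receptor, was dimmer than the Fcer1g probe but well above background on every array. The scaled signal was 7.74, 8.57, 7.98 and 6.78 on Psgl1+/+ replicates 1 to 4 and 7.999, 7.86, 7.04 and 7.15 on Psgl1-/- replicates 5 to 8. Replicate 4 was here the lowest array and not the highest. The means of 7.77 ± 0.74 (SD, n = 4) and 7.51 ± 0.49 (SD, n = 4) differed by -0.25 (SE 0.44, limma adjusted p = 0.822), with a 95% interval of 0.411 to 1.71 as a ratio of Psgl1-/- to Psgl1+/+. Its partner B2m, the light chain that the neonatal receptor needs to leave the endoplasmic reticulum, differed by -0.09 (SE 0.42, adjusted p = 0.942).

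Set against the whole array, 0 of the 7 tested probes passed the limma threshold of an adjusted p under 0.05, and 0 had an unadjusted p under 0.05. Of all 51378 tested probes 0.0175% passed (9, all higher in Psgl1-/- cells) and 10.3% had an unadjusted p under 0.05. The groups did not overlap for 0 of the 7 Fc receptor probes, against 11.2% of all tested probes. Differences ran from -0.53 to 1.95, with 3 negative (Fcer1g, the first Fcgr3 probe and Fcgrt) and 4 positive, although Fcer1g was above 0 under 4 other normalizations and Fcgrt after cyclic loess. The median over all tested probes was -0.32 under this scaling and between -0.17 and -0.0022 under the others tried. The negative values of the 3 steady probes are to be read against that shift. With slide row as a block, adjusted p-values ran from 0.634 to 0.947.

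**Figure D2:**
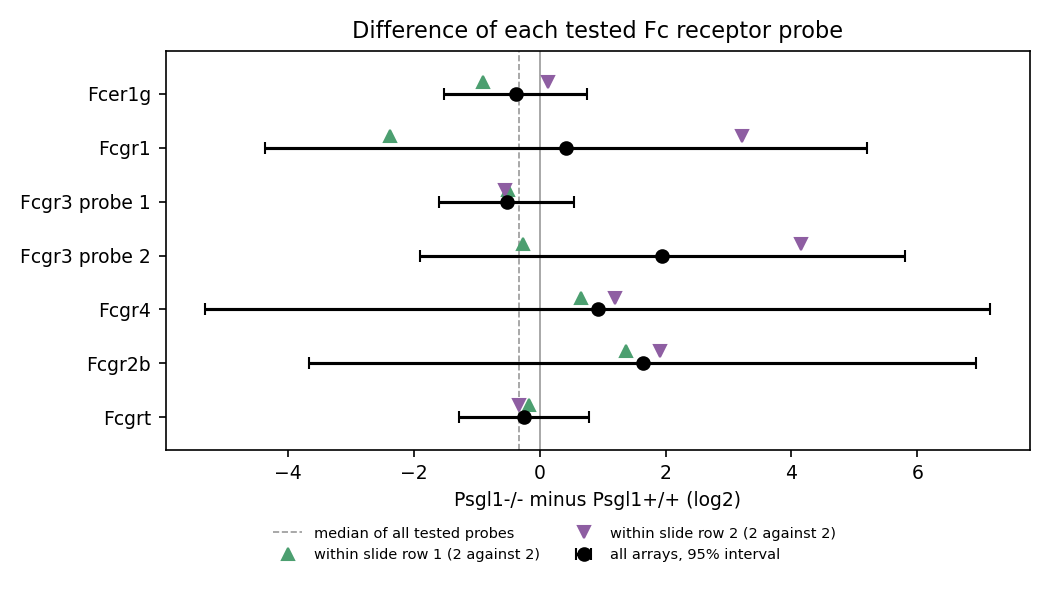
Difference between Psgl1-/- and Psgl1+/+ arrays (log2) for each tested Fc receptor probe; circles with bars are the limma difference and its 95% interval over all 8 arrays, triangles the differences within slide rows 1 and 2 (2 arrays against 2), the dashed line the median over all tested probes (-0.32). Every interval includes 0, and for Fcer1g, Fcgr1 and the second Fcgr3 probe the rows point in opposite directions.

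What set the members apart from each other was their spread within a genotype. The median within-group SD over all tested probes was 0.78 log2 units. Fcer1g (0.71), the first Fcgr3 probe (0.66) and Fcgrt (0.63) lay below it. Fcgr4 (4.27) was above 99.4% of tested probes, Fcgr2b (3.62) above 98.0%, Fcgr1 (3.27) above 96.5% and the second Fcgr3 probe (2.63) above 91.8%. For the second Fcgr3 probe the SD was 3.50 among Psgl1+/+ arrays and 1.25 among Psgl1-/- arrays, and for Fcgr2b it was 4.85 and 1.63. The arrays on which Fcgr4 and Fcgr2b were not well above background, 2 for each, enter these SDs, and their part in the spread was not tested. Fcgr3 had a probe on each side of the median, so for this gene the spread differed between its probes.

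**Figure D3:**
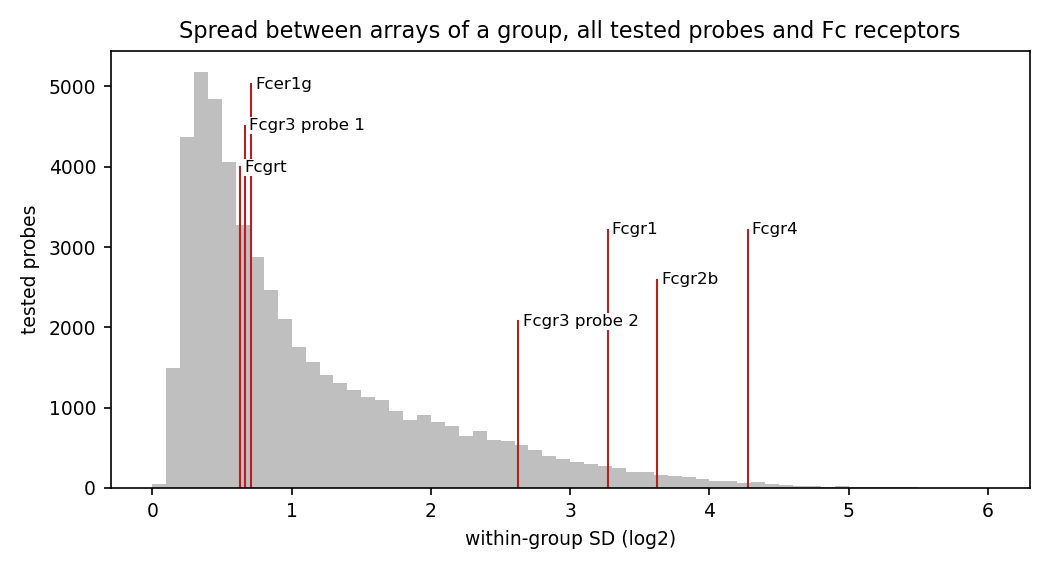
Number of tested probes (vertical axis) by their within-group SD in log2 units (horizontal axis), with the 7 tested Fc receptor probes as red lines, whose height carries no value. Fcer1g, the first Fcgr3 probe and Fcgrt sit near the median of 0.78, and the other 4 sit in the right tail between 2.63 and 4.27.

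The activating members shared the array on which they were highest. Psgl1+/+ replicate 4 was the highest array in all 5 probes of Fcer1g, Fcgr1, Fcgr3 and Fcgr4, and it had the lowest 75th percentile of all arrays (525.8 against 611.0 to 958.8), which raises scaled values. Without scaling it was highest in 4 of 5, and after array median scaling in 5 of 5. After quantile normalization, with or without normexp background correction, after cyclic loess and in the authors' value table it was highest in 3 of 5. Across the 8 arrays Fcgr4 and the second Fcgr3 probe had a Pearson r of 0.81 (Spearman rho 0.83). The Pearson r was 0.67 without Psgl1+/+ replicates 1 and 4, the arrays farthest from the median of the second Fcgr3 probe. Fcer1g and Fcgr1 had an r of 0.78 (rho 0.69), which was 0.39 without replicates 1 and 6, so that relation rests on those arrays. Fcgrt ran the other way, at an r of -0.73 with Fcgr4 and -0.70 with the second Fcgr3 probe. Fcgr2b followed none of the activating receptors, with r from -0.25 to 0.39. Without the arrays farthest from the median of the other receptor, its r ran from -0.77 (Fcgr4) to -0.33 (first Fcgr3 probe). Values at background enter the r of Fcgr2b (replicates 1 and 4) and of Fcgr4 (replicates 1 and 5). These 28 pairs are a description over 8 arrays that share a slide and a scaling, with no test.

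**Figure D4:**
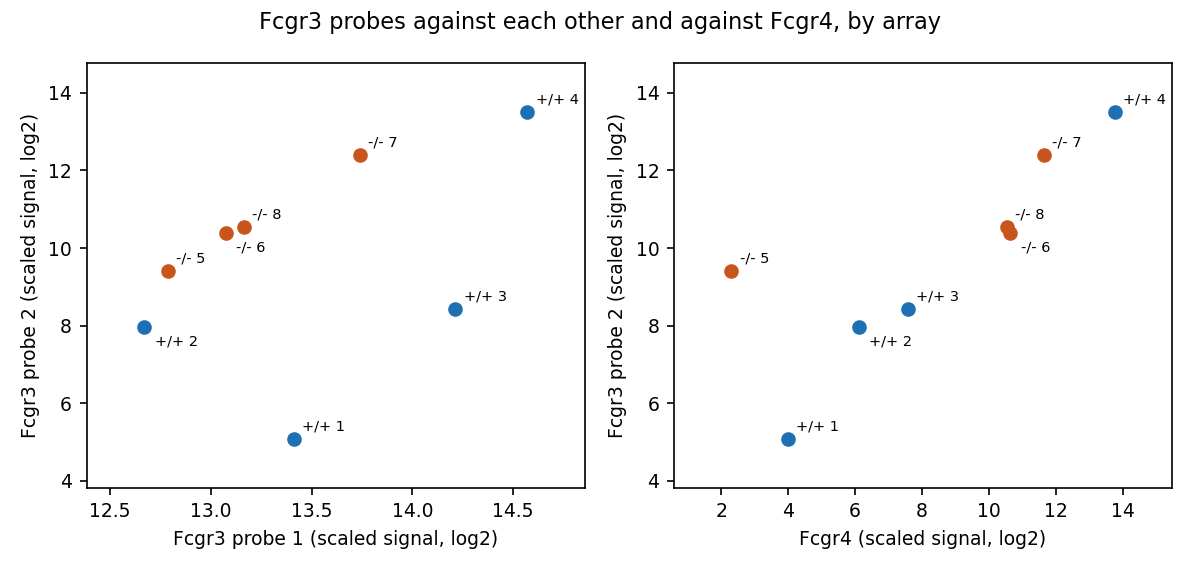
Scaled signal (log2) of the second Fcgr3 probe against the first Fcgr3 probe (left) and against Fcgr4 (right), 1 point an array, labelled by donor genotype and replicate. In the left panel the points scatter (r 0.42) with Psgl1+/+ replicate 1 lowest on the vertical axis, and in the right panel the points lie near a rising line (r 0.81) from which Psgl1-/- replicate 5 departs.

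For the activating binding chains, the 150 bases before their start sites are shown, from RefSeq (GRCm38.p6), 5′ to 3′ along the gene. Capitals mark GAGGAA on either strand, the core bound by the myeloid factor PU.1. For Fcgr3 the window of the downstream start site of the pair in RefSeq is given.
Fcgr1, chr3:96293970-96294119, minus strand: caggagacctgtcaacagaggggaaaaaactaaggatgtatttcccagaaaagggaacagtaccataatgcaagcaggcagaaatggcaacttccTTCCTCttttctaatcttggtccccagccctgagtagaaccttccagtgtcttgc
Fcgr3, chr1:171059395-171059544, minus strand: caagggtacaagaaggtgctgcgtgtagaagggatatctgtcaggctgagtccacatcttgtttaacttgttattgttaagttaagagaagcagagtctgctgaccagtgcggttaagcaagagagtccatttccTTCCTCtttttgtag
Fcgr4, chr1:171018776-171018925, plus strand: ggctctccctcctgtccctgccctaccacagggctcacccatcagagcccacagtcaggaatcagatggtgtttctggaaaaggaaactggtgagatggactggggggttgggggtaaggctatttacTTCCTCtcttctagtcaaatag
GAGGAA begins 55 bases before the start of Fcgr1, 15 before that of Fcgr3 and 22 before that of Fcgr4, in each case on the opposite strand. Within the 250 bases before the start sites, 23.3% of 32851 RefSeq promoters hold GAGGAA. It was not found in the windows of Fcer1g, Fcgr2b and Fcgrt, which says only that these letters are not there, and the Fcer1a window held GAGGAA farther out. Such matches describe the sequence and are no measurement of binding.

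Genes with the most similar pattern over the 8 arrays were taken for 4 members out of 25614 tested genes with a symbol, by Pearson r. For Fcer1g they were Fau (r = 0.976), which encodes a ribosomal protein fused to a ubiquitin-like protein, Lamtor1 (0.973) of the lysosomal Ragulator complex, Derl1 (0.968) of endoplasmic reticulum quality control and Cggbp1 (0.967). Only Lamtor1 stayed among the closest 4 after quantile normalization. For Fcgr4 they were Rps29 (0.982), the AP-1 factor Fosl2 (0.972) and the myotubularins Mtmr12 (0.951) and Mtmr2 (0.945), of which the last 3 stayed. For Fcgr2b they were Asb8 (0.971), Mir6930 (0.967), the dermatan sulfate epimerase Dse (0.952) and Wipf1 (0.951), an adaptor of the actin regulator WASP, of which the first 3 stayed. For Fcgrt they were Olfr1252 (0.941), Fam171a1 (0.940), Mir7674 (0.930) and Krt12 (0.930), of which the first 3 stayed. A high r was not unique to the genes named, as 18 (Fcgrt) to 54 (Fcer1g) of the 25614 genes exceeded 0.9 for each of these members. These correlations rest on only 8 arrays and were not tested.

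The pattern of the members was set beside that of the 11 monocyte and macrophage markers over the 8 arrays, as a description with no test. The median r with the markers was 0.47 for Fcer1g (10 of 11 above 0), 0.27 for Fcgr1 (8), 0.39 for the first and 0.46 for the second Fcgr3 probe (9 each) and 0.54 for Fcgr4 (10). Over 42268 tested genes these medians ran from -0.05 to 0.10. For Fcgr2b the median was 0.12 against -0.19 over all genes, and for Fcgrt it was -0.44, with 0 of 11 above 0, against 0.05. Positive medians were not particular to this list. Fcgr1 had 0.45 with microglia markers, the first Fcgr3 probe 0.45 with B cell markers and Fcer1g 0.36 with oligodendrocyte markers. The summed scaled intensity of the monocyte and macrophage markers ran from 48902 to 118451 on the Psgl1+/+ arrays and from 43020 to 147328 on the Psgl1-/- arrays, and its part in the values of the receptors was not tested. Of the 11 markers 6 had a positive and 5 a negative difference, with a median of 0.27, and none passed the limma threshold. Over all tested genes 31.0% were positive and the median was -0.33. The groups did not overlap for 1 of them, the fractalkine receptor Cx3cr1 (difference -1.30, SE 0.46, limma adjusted p = 0.458), against 11.5% of tested genes. The next by unadjusted p were Ly6c2 of inflammatory monocytes (1.31, SE 1.35), the lysosomal protein Cd68 (1.03, SE 1.10) and the endotoxin co-receptor Cd14 (1.13, SE 1.41). Each was higher in the Psgl1-/- mean, with a limma adjusted p between 0.688 and 0.743. The 5 negative differences were those of Cx3cr1, Ptprc (-0.22), Csf1r (-0.11), Itgam (-0.09) and Lyz2 (-0.09).

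The genes that act with the Fc receptors were examined in 3 lists, each gene by its brightest probe, and 0 of their 57 tested members passed the limma threshold, against 0.00236% of 42430 tested genes. An unadjusted p under 0.05 was reached by 3 of the 57, against 10.8% of tested genes. Of 26 genes that carry the signal from the activating chain, 16 had a positive and 10 a negative difference, with a median of 0.13. Over all tested genes the median was -0.33 and 31.0% were positive. Btk, the kinase that activates phospholipase C gamma downstream of Syk, was at 8.61, 7.99, 8.55 and 7.80 on Psgl1+/+ replicates 1 to 4 and at 8.99, 10.61, 11.44 and 10.42 on Psgl1-/- replicates 5 to 8. All 4 Psgl1-/- arrays lay above all Psgl1+/+ arrays, yet the difference of 2.13 (SE 0.52) did not pass (limma adjusted p = 0.458). Rac2, the GTPase of the phagocyte oxidase, had a difference of 1.08 (SE 0.49), the PI3-kinase subunit Pik3cd of -0.58 (SE 0.27) and the adaptor Card9 of -0.64 (SE 0.29), each with an adjusted p between 0.458 and 0.459. Syk itself differed by 0.38 (SE 0.35, adjusted p = 0.648), and it and the genes Src, Fcer2a and Pirb below were named after their values were seen.

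Of 9 genes of the inhibitory route 4 were positive and 5 negative, with a median of -0.50. Inpp5d, which encodes SHIP1, the phosphatase that Fcgr2b recruits, was at 8.42, 10.94, 8.19 and 15.25 on Psgl1+/+ replicates 1 to 4 and at 8.11, 8.13, 8.34 and 8.74 on Psgl1-/- replicates 5 to 8. Replicates 2 and 4 were high and the other 6 arrays close together, and the difference of -2.37 (SE 1.47) did not pass (limma adjusted p = 0.517). The phosphatase SHP2 (Ptpn11) had a difference of 2.29 (SE 1.23), the adaptor Dok2 of -0.55 (SE 0.44) and the kinase Csk, which restrains Src kinases, of -0.78 (SE 0.43). Their adjusted p-values were 0.480, 0.599 and 0.485.

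Of 24 other Fc receptors, adaptor chains and receptors that signal through the Fcer1g chain, 22 were on the array, 6 with a positive and 16 with a negative difference and a median of -0.43. Fcamr, a receptor for IgA and IgM, was lower by 0.89 in the Psgl1-/- mean (difference -0.89, SE 0.28, limma adjusted p = 0.458), with overlapping groups. The adaptor chain Hcst (DAP10) had a difference of -0.73 (SE 0.30), Fcrlb of -0.63 (SE 0.29) and the C-type lectin Clec4d, which signals through Fcer1g, of -0.49 (SE 0.23), each with an adjusted p between 0.458 and 0.462. Groups without overlap were found for Btk and Src in the signalling list, for Fcer2a, Clec4d and Pirb in this list and for 0 of the inhibitory route, 5 of 57 in all, against 11.5% of tested genes. Of 11 antibody genes 2, Ighg3 and Jchain, could be matched by name, with differences of -0.21 and -0.26 (limma adjusted p = 0.813 and 0.749).

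**Figure D5:**
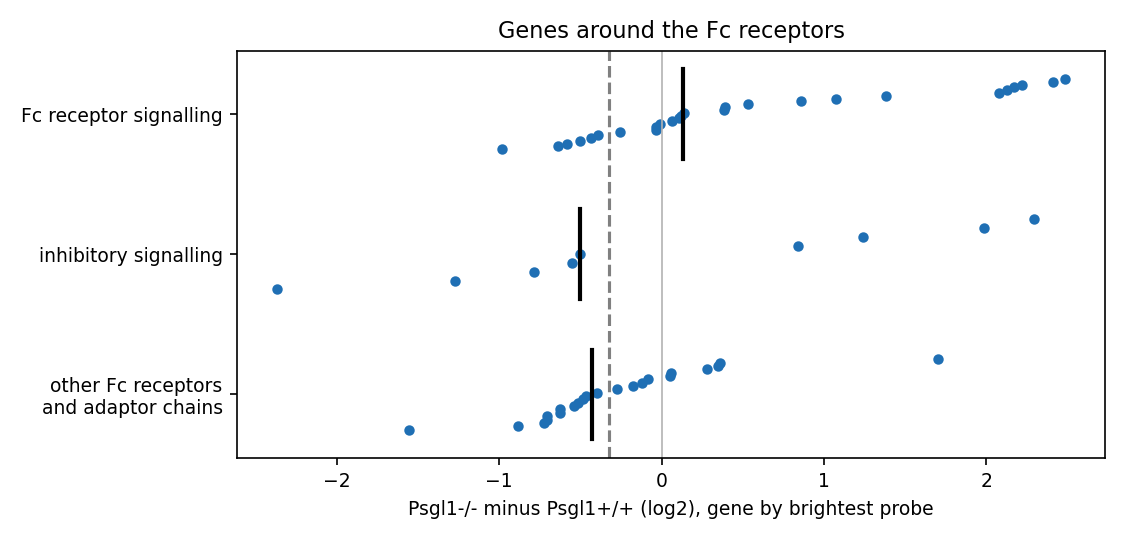
Difference between Psgl1-/- and Psgl1+/+ arrays (log2) of each tested gene in the 3 lists, each gene by its brightest probe; black bars are list medians (0.13, -0.50 and -0.43) and the dashed line is the median over all 42430 tested genes (-0.33). Points of the signalling list reach farther to the right than to the left, and none of the 57 genes passed the threshold.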

How the data were processed

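Per the file headers, 8 arrays of an Agilent design were read in a single colour with Feature Extraction 11.5.1.1, and the deposited scanner files give linear intensities, detrended within each array and not scaled between arrays. They name build mm9. A table of array values, again intensities, was deposited too, and no source used here gives its processing. Its columns hold identical sorted values (median 132.9) and correlate on the log2 scale with their own array at a lowest r of 0.998 and with others at a highest r of 0.809, so it is linear and quantile normalized, and it served as an alternative. The flag for spots well above background, deposited as another value of 0 or 1 per the file headers, set the filter.

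Control spots and outlier spots (25 to 149 per array) were left out, no spot was saturated, and spots of a probe were averaged. Names came from RefSeq (31064 probes by accession, 8935 by symbol, 420 by older symbol). On the log2 scale, every array had its 75th percentile taken off and the mean of the 8 percentiles added. Probes that passed the flag on 4 or more of 8 arrays were tested (51378) with limma 3.58.1 (lmFit, eBayes) in R 4.3.3, two-sided, with Benjamini-Hochberg adjustment. The fit was tested on simulated data. Of the lists, each gene was read by its brightest probe, and named genes were the members, Selplg, the sort markers, up to 4 genes of each list by unadjusted p and the 4 genes most similar to each of 4 members. The members, lists and tests were chosen with earlier results of these data known. Further cell type lists were measured (neutrophils, T cells, NK cells, microglia, conventional dendritic cells, endothelium, neurons, astrocytes, oligodendrocytes, platelets and erythroid cells), and 0 of their members passed the threshold. The number of arrays limits the precision. Python 3.11.15, numpy 2.4.6, pandas 2.3.3 and matplotlib 3.10.9 were used.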

Additional observations from a re-analysis of the deposited data

Results flagged for a closer look

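In 3 of 18 groups of 4 arrays examined, the lowest array lay apart from the others by Dixon's criterion, which chance meets in about 1 in 20 groups. Fcgr1 was at 6.95 on Psgl1-/- replicate 6 against 12.75 on the next array of that genotype. On the same array Fcgr2b was at 5.85 against 9.10, and Fcgr4 was at 2.30 on Psgl1-/- replicate 5 against 10.53.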

How the results depend on the processing

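The count of Fc receptor probes past the threshold was 0 under all 18 alternatives, with the lowest adjusted p of any probe between 0.483 and 0.871. Directions were less firm. Fcer1g (-0.38) turned to 0.0090 after quantile normalization, 0.016 after cyclic loess, 0.062 with normexp and 0.011 in the value table. Fcgrt (-0.25) turned to 0.043 after cyclic loess, and without Psgl1-/- replicates 7 and 8 together Fcgrt was at 0.17, Fcgr1 at -1.11 and Fcgr4 at -1.39. Leaving out 1 array at a time gave -0.72 to -0.08 for Fcer1g, -1.11 to 1.95 for Fcgr1, -0.37 to 3.08 for Fcgr4, 0.25 to 3.38 for Fcgr2b, 0.73 to 3.53 for the second and -0.88 to -0.24 for the first Fcgr3 probe, -0.58 to 0.015 for Fcgrt and -2.90 to 1.13 for the balance of activating over inhibitory signal. The 9 probes past the threshold on the whole array became 1 with normexp, 1 with the brightest probe of each gene, 1 with slide row as a block, and 0 without Psgl1-/- replicates 7 and 8 (where 1180 were higher and 998 lower by unadjusted p). Without Psgl1+/+ replicates 1, 2 and 4 they became 0, 5 and 5, and without Psgl1-/- replicates 5, 6, 7 and 8 they became 3, 23, 0 and 3 (739 higher and 3342 lower without replicate 1, 942 and 2337 without replicate 7). The cause of these changes was not tested. By unadjusted p under 0.05, the split was 839 higher and 4447 lower, 1113 and 2142 with quantile normalization, 1068 and 2107 with median scaling, 1519 and 896 after cyclic loess, 1000 and 2258 with normexp and 1118 and 2076 in the value table. The Fcgr4 and Fcgr2b signals at background on 2 arrays each bound their levels there. No paired analysis was possible because the groups share no replicate number.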
